A study of Homo sapiens with 9 samples.

Results

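The genes described here are Krt20 and 9 other epithelial keratins, Krt7, Krt8, Krt18, Krt19, Krt23, Krt80, Krt5, Krt14 and Krt17, which were 10 of the 17369 genes in the expression table. They were chosen by symbol, and Krt20 was picked because it was lower in tumors of adapted cells, so its levels in those comparisons are given as a description without a test. RNA sequencing covered 9 orthotopic thyroid tumors in 3 groups of 3, each from a separate biological replicate. TBP3743 is a murine anaplastic thyroid cancer line derived from B6129SF1 mice in which Braf V600E and the loss of Trp53 were restricted to the thyroid, and the cells of all groups share both alterations. Adapted cells were TBP3743 cells taken after passage round 3 under the skin of C57BL/6 mice, from tumors selected for their size. The groups are named by cells and host: original cells in B6129SF1 mice (original/B6129SF1), adapted cells in B6129SF1 mice (adapted/B6129SF1) and adapted cells in C57BL/6 mice (adapted/C57BL/6). All hosts were female and 6 weeks old, received 100000 cells in the thyroid and were studied 14 days later. The original/B6129SF1 and adapted/C57BL/6 groups differ in both cells and host, which cannot be told apart there. The sample labels name a human organism, whereas the hosts, the cell line, the mm10 genome build and the gene symbols are those of the mouse.

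Keratins are the intermediate filament proteins of epithelial cells. A filament needs a type I partner, here Krt14, Krt17, Krt18, Krt19, Krt20 or Krt23, and a type II partner, here Krt5, Krt7, Krt8 or Krt80. Krt8 and Krt18 form the filaments of simple epithelia, thyroid follicles among them, while Krt5 and Krt14 form those of basal cells in stratified epithelia. Krt20 is best known from the gut lining, the umbrella cells of the bladder and Merkel cells of the skin. Desmosomes and hemidesmosomes anchor the filaments to neighbouring cells and to the matrix.

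Levels are given as FPKM, fragments scaled by transcript length and by the size of each library, which can be compared between genes. The FPKM of a tumor summed to between 457980 and 540510, and read totals were not used here. The smallest steps between low values gave depths between 0.96 and 1.35 relative to original/B6129SF1 replicate 1, an approximate figure resting on 72 to 173 genes per tumor. Differences between groups were taken on the log2(FPKM + 1) scale, which makes the change of weak genes look smaller, and tested with limma over the 10263 genes that reached 1 FPKM in 3 or more tumors. A gene was called a differentially expressed gene (DEG) where its Benjamini-Hochberg adjusted p was under 0.05 and its log2 fold change was above 1 in size. A list of skeletal muscle genes held 7.44% of the FPKM of adapted/B6129SF1 replicate 3, 1.4% of that of adapted/C57BL/6 replicate 1 and no more than 0.163% elsewhere. In bulk tumors, fewer cells of a type and less RNA per cell cannot be told apart.

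The keratins of these tumors were almost entirely Krt8 and Krt18. Together they made up between 89.6% and 97.6% of the summed FPKM of all 49 keratin rows in every tumor, and no other keratin row exceeded 80.8 FPKM. Krt20 came next except in adapted/B6129SF1 replicate 3 and adapted/C57BL/6 replicate 3, where Krt80 was higher. Krt80, Krt7 and Krt19 ranged from 0.102 to 5.35 FPKM, Krt23 was under 1 FPKM in all tumors but 1, where it was 2.10 FPKM, and Krt5, Krt14 and Krt17 did not exceed 0.420 FPKM. Of the 10 genes, 6 passed the filter on low values and 4 (Krt23, Krt5, Krt14 and Krt17) did not. Of the 39 other keratin rows, Krt10 and Krt12 passed, and the remaining 37 stayed at or below 0.531 FPKM in every tumor, 19 of them at 0 throughout.

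Krt20 was 30.5, 57.3 and 80.8 FPKM in original/B6129SF1 replicates 1, 2 and 3. It was 4.83, 7.78 and 2.55 FPKM in the adapted/B6129SF1 tumors and 13.9, 5.63 and 2.84 FPKM in the adapted/C57BL/6 tumors. Every adapted tumor was below every original tumor, and the nearest values were adapted/C57BL/6 replicate 1 and original/B6129SF1 replicate 1. The group means were 56.2 ± 25.2, 5.05 ± 2.62 and 7.44 ± 5.73 FPKM (SD, n = 3 tumors each), so that the mean was 11.1-fold lower in the adapted/B6129SF1 group and 7.55-fold lower in the adapted/C57BL/6 group than in the original/B6129SF1 group. On the log2 scale the differences were -3.23 and -2.88, each with a standard error of 0.54. The spread within groups was wide, with the highest tumor at 2.65 times the lowest in the original/B6129SF1 group, 3.05 times in the adapted/B6129SF1 group and 4.88 times in the adapted/C57BL/6 group. Between the adapted/C57BL/6 and adapted/B6129SF1 groups, a comparison that did not pick the gene, the log2 difference was 0.35 (standard error 0.54, limma adjusted p = 0.935) and the tumors overlapped.

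**Figure D1:**
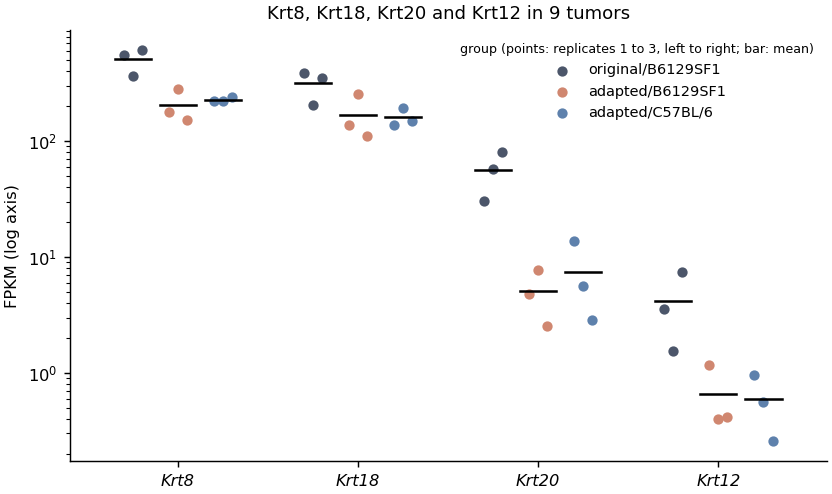
FPKM of Krt8, Krt18, Krt20 and Krt12 (vertical log axis) in each of the 9 tumors, colored by group, with replicates 1 to 3 from left to right and a bar at each group mean. For Krt20, Krt8 and Krt12 all 6 adapted tumors lie below the original/B6129SF1 tumors, while for Krt18 adapted/B6129SF1 replicate 2 (256 FPKM) lies above original/B6129SF1 replicate 2 (207 FPKM).

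Krt8, the type II partner of the simple epithelial pair, was the most abundant keratin in every tumor. It was 553, 363 and 615 FPKM in original/B6129SF1 replicates 1 to 3, 180, 283 and 153 FPKM in the adapted/B6129SF1 tumors and 222, 221 and 241 FPKM in the adapted/C57BL/6 tumors. All adapted tumors were below all original tumors, and the adapted/C57BL/6 tumors lay close together. The means were 510 ± 131, 205 ± 68.8 and 228 ± 11.1 FPKM (SD, n = 3 each). Against original/B6129SF1, Krt8 fell by 1.32 (log2, standard error 0.25, limma adjusted p = 0.0189) in adapted/B6129SF1 tumors. In adapted/C57BL/6 tumors it fell by 1.12 (log2, standard error 0.25, limma adjusted p = 0.0346).

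Krt8 was the single DEG among the 5 tested keratins besides Krt20 in each of these comparisons. Over all genes tested, 3.22% were DEGs and 0.857% lower DEGs for adapted/B6129SF1, and 3.09% were DEGs and 0.672% lower DEGs for adapted/C57BL/6. An unadjusted p under 0.05 was reached by 2 of the 5 keratins, Krt8 and Krt18, in each comparison, against 26.5% of all genes for adapted/B6129SF1 and 24.4% for adapted/C57BL/6. Besides Krt20, the adapted tumors lay wholly below the original tumors for 1 of the 5 keratins in adapted/B6129SF1 and 2 in adapted/C57BL/6, where the same held for 15.9% and 17.9% of all genes. Both comparisons share the original/B6129SF1 tumors. The Krt8 difference kept its direction in all 19 alternative fits of each comparison, between -1.58 and -1.14 for adapted/B6129SF1 and between -1.35 and -0.97 for adapted/C57BL/6, but its adjusted p moved across 0.05. For adapted/B6129SF1 tumors the call was lost without original/B6129SF1 replicate 1 (limma adjusted p = 0.0679) or replicate 3 (adjusted p = 0.0742). For adapted/C57BL/6 tumors it was lost without either of those (adjusted p = 0.109 and 0.116) and without adapted/C57BL/6 replicate 1, 2 or 3 (adjusted p = 0.09, 0.0897 and 0.107). With the 2 tumors rich in muscle transcripts left out, an alternative chosen after seeing the data, the adjusted p was 0.0608 and 0.0615 from limma.

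Krt18, the type I partner of Krt8, was 390, 207 and 349 FPKM in original/B6129SF1 replicates 1 to 3. It was 139, 256 and 110 FPKM in the adapted/B6129SF1 tumors and 138, 195 and 150 FPKM in the adapted/C57BL/6 tumors. The adapted/B6129SF1 and original/B6129SF1 tumors overlapped, and the adapted/C57BL/6 tumors were all below the original/B6129SF1 tumors. The log2 fold changes were -0.94 (standard error 0.33, limma adjusted p = 0.116) and -0.93 (standard error 0.33, adjusted p = 0.131), neither past the threshold. Without adapted/B6129SF1 replicate 2, the tumor with the highest Krt18 of its group, the adapted/B6129SF1 difference was -1.29 (limma adjusted p = 0.0466) and Krt18 became a DEG.

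Krt8 exceeded Krt18 in every tumor. The ratio of Krt8 to Krt18 FPKM was 1.64 ± 0.195 in the original/B6129SF1 group, 1.26 ± 0.144 in the adapted/B6129SF1 group and 1.45 ± 0.276 in the adapted/C57BL/6 group (SD, n = 3 each). The adapted/B6129SF1 ratios were all below the original/B6129SF1 ratios (two-sided exact permutation p = 0.1, which is the lowest 3 tumors against 3 allow), and the adapted/C57BL/6 ratios overlapped both groups (p = 0.5 and 0.3 by the same exact permutation test). Expressed against Krt18 of the same tumor, Krt20 was 7.83%, 27.7% and 23.2% in the original/B6129SF1 tumors, 3.47%, 3.04% and 2.31% in the adapted/B6129SF1 tumors and 10%, 2.89% and 1.89% in the adapted/C57BL/6 tumors. The adapted/C57BL/6 replicate 1 tumor was above original/B6129SF1 replicate 1 on this scale, so the groups that do not overlap in Krt20 FPKM did overlap here.

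Summed over the type II members, keratin levels were 514 ± 132 FPKM in the original/B6129SF1 group, 210 ± 68.9 in the adapted/B6129SF1 group and 232 ± 10.7 in the adapted/C57BL/6 group (SD, n = 3 each). Both adapted groups lay below the original/B6129SF1 group without overlap (two-sided exact permutation p = 0.1, the lowest possible). That difference was Krt8, since without it the sums were 3.96 ± 1.54, 4.35 ± 1.6 and 3.79 ± 0.891 FPKM and overlapped (two-sided exact permutation p = 0.7 and 1 against original/B6129SF1). The type I members other than Krt20, which are nearly all Krt18, summed to 316 ± 95.0, 170 ± 78.5 and 163 ± 30.3 FPKM in the same order (two-sided exact permutation p = 0.2 for adapted/B6129SF1 and 0.1 for adapted/C57BL/6 against original/B6129SF1). Krt20 made up 7.25% to 21.5% of the type I sum in original/B6129SF1 tumors, 2.25% to 3.31% in adapted/B6129SF1 tumors and 1.85% to 8.97% in adapted/C57BL/6 tumors.

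**Figure D2:**
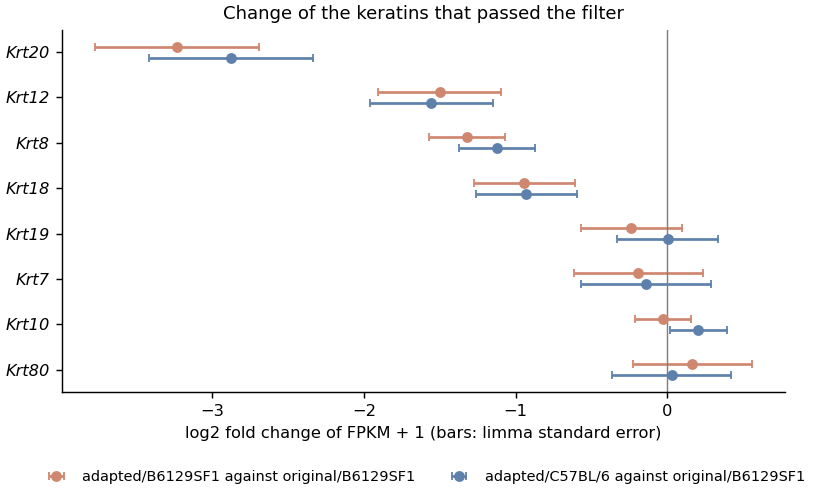
Log2 fold change of FPKM + 1 (horizontal axis) for the 8 keratin rows that passed the filter (vertical axis), for each adapted group against the original/B6129SF1 group. Points are limma estimates and bars their standard errors. Krt20 and Krt12, both shown as a description, and Krt8 and Krt18 lie to the left of 0 in both groups, and Krt19, Krt7, Krt10 and Krt80 lie near it.

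Krt80, Krt7 and Krt19, keratins of simple and differentiating epithelia, did not pass the threshold in any comparison. Krt80, a type II keratin, was 4.62, 1.08 and 3.20 FPKM in the original/B6129SF1 tumors, 2.19, 2.42 and 5.35 in the adapted/B6129SF1 tumors and 3.38, 1.90 and 3.10 in the adapted/C57BL/6 tumors. The ranges of the 3 groups overlapped, with log2 fold changes of 0.17 and 0.03 (limma adjusted p = 0.82 and 0.975). Krt19, a type I keratin, was 0.551, 2.10 and 1.04 FPKM in the original/B6129SF1 tumors. It was 1.28, 0.617 and 0.621 FPKM in the adapted/B6129SF1 tumors and 1.63, 1.69 and 0.393 in the adapted/C57BL/6 tumors. The groups overlapped, and the log2 fold changes were -0.24 and 0.002 (limma adjusted p = 0.681 and 0.998).

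Krt7, a type II keratin of ducts and glands, varied more within the adapted groups than between groups. It was 0.930, 1.39 and 0.674 FPKM in original/B6129SF1 replicates 1 to 3, 0.315, 2.27 and 0.205 in the adapted/B6129SF1 tumors and 1.14, 1.43 and 0.102 in the adapted/C57BL/6 tumors. The highest tumor was 2.06 times the lowest in the original/B6129SF1 group, 11.1 times in the adapted/B6129SF1 group and 14 times in the adapted/C57BL/6 group. Its log2 fold changes were -0.19 and -0.14 (limma adjusted p = 0.808 and 0.876). The epithelial adhesion gene Epcam, compared after its values were seen, was 0.106 and 0.391 FPKM in adapted/B6129SF1 replicates 1 and 3 and 0.0949 in adapted/C57BL/6 replicate 3, the same 3 tumors in which Krt7 was lowest. In adapted/B6129SF1 replicate 2, where Krt7 was highest, Epcam was 2.34 FPKM. Epcam itself was highest in adapted/C57BL/6 replicate 1 (2.49 FPKM), where Krt7 was 1.14 FPKM. Other epithelial genes followed this in part. In adapted/B6129SF1 replicates 1 and 3, Cdh1 (1.47 and 1.03 FPKM) and Spint1 (2.97 and 2.77) were at their lowest. In adapted/C57BL/6 replicate 3 they were 3.58 and 7.02 FPKM, and Klf5 was highest in adapted/B6129SF1 replicate 1 (21.5 FPKM).

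**Figure D3:**
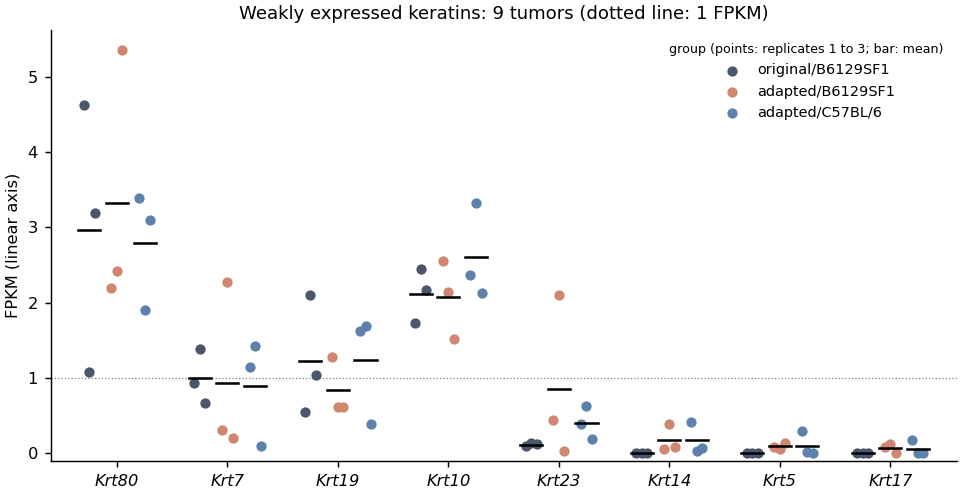
FPKM (vertical linear axis) of the 8 weaker keratin rows in each of the 9 tumors, colored by group, with a bar at each group mean and a dotted line at 1 FPKM. Krt80, Krt7, Krt19 and Krt10 overlap between all groups, and Krt14, Krt5 and Krt17 are listed at 0 in all 3 original/B6129SF1 tumors.

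Krt23, a type I keratin, reached 1 FPKM in 1 tumor and was not tested. It was 0.0963, 0.133 and 0.121 FPKM in the original/B6129SF1 tumors, 0.444, 2.10 and 0.0302 in the adapted/B6129SF1 tumors and 0.386, 0.626 and 0.185 in the adapted/C57BL/6 tumors. All adapted/C57BL/6 tumors were above the original/B6129SF1 tumors, while the adapted/B6129SF1 tumors lay on both sides of them. Its highest value was in adapted/B6129SF1 replicate 2, the tumor with the most Krt7.

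The keratins of basal and stressed stratified epithelium were close to absent. Krt5, Krt14 and Krt17 were listed at 0 in all original/B6129SF1 tumors. Krt14 was 0.0543, 0.389 and 0.0832 FPKM in the adapted/B6129SF1 tumors and 0.420, 0.0302 and 0.0727 in the adapted/C57BL/6 tumors. Its type II partner Krt5 was 0.0795, 0.0633 and 0.142 FPKM in the adapted/B6129SF1 tumors and 0.292, 0.0221 and 0 in the adapted/C57BL/6 tumors. Krt17 was 0.0907, 0.120 and 0 FPKM in the adapted/B6129SF1 tumors and 0.173, 0 and 0 in the adapted/C57BL/6 tumors. All 3 were highest in adapted/C57BL/6 replicate 1. Of the 6 airway genes, 4 were also highest in that tumor, namely the secretory genes Muc5b (18.8 FPKM against at most 0.0849 in the others), Bpifa1 (8.98 against at most 0.809) and Scgb3a2 (0.712 against at most 0.187) and the ciliated cell gene Foxj1 (0.176 against at most 0.0741). The other 2 peaked elsewhere, Scgb1a1 in adapted/B6129SF1 replicate 1 (1.67 FPKM against 1.5 in adapted/C57BL/6 replicate 1) and Tppp3 in adapted/B6129SF1 replicate 3 (39.5 against 16.8). Among basal genes, the keratin gene Krt15 was 0.531 FPKM in adapted/C57BL/6 replicate 1, its highest level, while Trp63, the basal cell transcription factor gene, was highest in adapted/B6129SF1 replicate 3 (4.76 FPKM against 0.736). The part of airway or other normal epithelium in these values was not tested.

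Among keratins outside the chosen list, Krt12 and Krt10 passed the filter. Krt12, a type I keratin known from the corneal epithelium, was 3.57, 1.54 and 7.41 FPKM in the original/B6129SF1 tumors, 1.17, 0.400 and 0.416 in the adapted/B6129SF1 tumors and 0.956, 0.559 and 0.257 in the adapted/C57BL/6 tumors. No adapted tumor reached the lowest original tumor, and the mean was 6.29-fold lower in the adapted/B6129SF1 group and 7.06-fold lower in the adapted/C57BL/6 group. Krt12 passed the filter through the original/B6129SF1 tumors and 1 adapted tumor, so these values are a description without a test. Krt10, the type I keratin of suprabasal epidermis, was 1.52 to 3.33 FPKM over all tumors, with log2 fold changes of -0.03 and 0.20 (limma adjusted p = 0.942 and 0.552).

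The adapted/C57BL/6 and adapted/B6129SF1 groups received adapted cells in different hosts. Between them 0 of the 6 keratins tested were DEGs by limma, against 0.0292% of all genes, and 0 had an unadjusted p under 0.05, against 6.27% of all genes. The log2 differences of the 6 ran from -0.14 for Krt80 to 0.35 for Krt20, with adjusted p between 0.928 and 0.996. The tumors of both groups overlapped for each of the 10 keratins, while 11.7% of all genes tested did not overlap.

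Of the 13 desmosome components and partners 6 passed the filter, and 0 were DEGs in any comparison by limma. Against original/B6129SF1, 1 of the 6 had an unadjusted p under 0.05 in adapted/B6129SF1 and 2 in adapted/C57BL/6, beside 26.5% and 24.4% of all genes. Between the adapted groups 0 of the 6 did, beside 6.27% of all genes. The median log2 fold change of the 6 was -0.18 in the adapted/B6129SF1 group and -0.46 in the adapted/C57BL/6 group, where the median over all genes tested was -0.03 in both. In the adapted/B6129SF1 group 3 of them were higher and 3 lower, and in the adapted/C57BL/6 group 2 were higher and 4 lower. Dsp, whose product desmoplakin ties keratin to the desmosome, did not exceed 0.325 FPKM in any tumor, and the desmosomal cadherin gene Dsg2 did not exceed 0.285. Pkp2, which encodes a desmosomal plaque protein, was 9.20, 11.3 and 7.72 FPKM in the original/B6129SF1 tumors, 6.02, 5.45 and 5.33 in the adapted/B6129SF1 tumors and 4.09, 6.04 and 4.57 in the adapted/C57BL/6 tumors. All adapted tumors were below the original tumors. Its log2 fold changes of -0.64 and -0.82 (limma adjusted p = 0.045 and 0.0221) were below the fold threshold for a DEG. Over the 19 alternative fits the limma adjusted p of Pkp2 ran from 0.0369 to 0.118 and from 0.0164 to 0.0979. For adapted/B6129SF1 it was above 0.05 when any 1 tumor of the groups compared was left out. Ppl, the gene of periplakin, a linker of filaments to the cell border, was 26.7, 47.4 and 25 FPKM in the original/B6129SF1 tumors, 30.1, 23.7 and 19.4 in the adapted/B6129SF1 tumors and 18, 18.9 and 17.5 in the adapted/C57BL/6 tumors, with log2 fold changes of -0.38 and -0.77 (limma adjusted p = 0.337 and 0.0898). Pkp4 had log2 fold changes of 0.10 and 0.28 (limma adjusted p = 0.737 and 0.352). Those of Jup were 0.46 and -0.15 (limma adjusted p = 0.378 and 0.806).

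Among genes for hemidesmosomes and filament linkers, Plec, whose product plectin links intermediate filaments to other structures, was 92.0, 68.7 and 97.4 FPKM in the original/B6129SF1 tumors, 71.8, 69.3 and 79.4 in the adapted/B6129SF1 tumors and 77.0, 64.7 and 80.9 in the adapted/C57BL/6 tumors. The groups overlapped, with log2 fold changes of -0.21 and -0.20 (limma adjusted p = 0.387 and 0.444). Cd151, Itga6 and Itgb4, parts of the hemidesmosome, were not past the threshold either, with adjusted p from limma between 0.436 and 0.964 against original/B6129SF1.

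**Figure D4:**
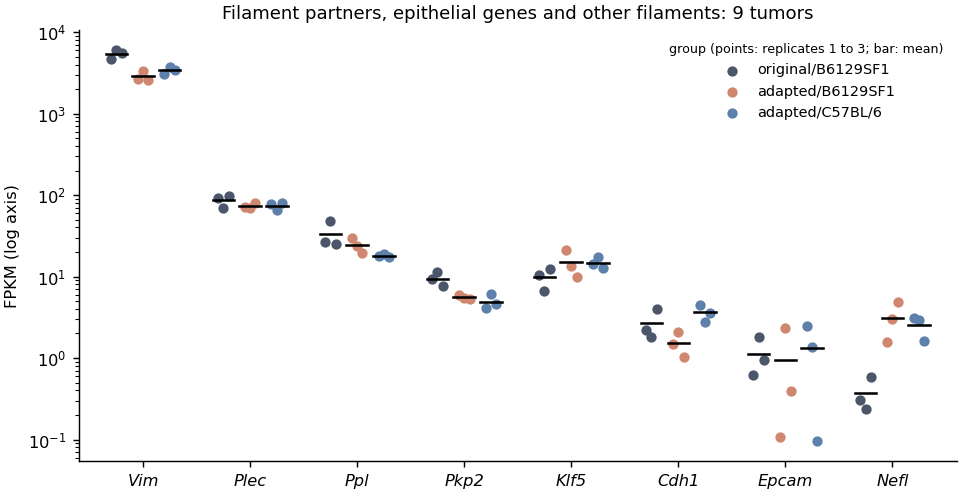
FPKM (vertical log axis) of 8 genes from the partner lists in each of the 9 tumors, colored by group, with a bar at each group mean. Pkp2 is lower and Nefl is higher in all adapted tumors than in the original/B6129SF1 tumors, Vim is lower in all adapted tumors, Epcam overlaps between all groups, and Cdh1 is higher in every adapted/C57BL/6 tumor than in any adapted/B6129SF1 tumor while both groups overlap the original tumors.

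Genes of epithelial identity were low in every group, far below Krt8 and Krt18. Of the 25 genes on the list 6 passed the filter, and 0 were DEGs in any comparison by limma. Against original/B6129SF1, 0 had an unadjusted p under 0.05 in either adapted group, beside 26.5% and 24.4% of all genes. Between the adapted groups 2 did, beside 6.27% of all genes. The median log2 fold change of the 6 was -0.21 in the adapted/B6129SF1 group and 0.33 in the adapted/C57BL/6 group. Cdh1, which encodes E-cadherin, was 2.22, 1.82 and 4.01 FPKM in the original/B6129SF1 tumors, 1.47, 2.11 and 1.03 in the adapted/B6129SF1 tumors and 4.48, 2.80 and 3.58 in the adapted/C57BL/6 tumors. It overlapped between each adapted group and the original/B6129SF1 group (limma adjusted p = 0.237 and 0.438). The adapted/C57BL/6 tumors were all above the adapted/B6129SF1 tumors, with a log2 difference of 0.87 that did not pass the threshold (limma adjusted p = 0.602). The epithelial regulators Grhl2, Esrp1 and Ovol2 stayed at or below 0.142, 0.336 and 0.106 FPKM, and Grhl3 was listed at 0 in every tumor. Klf5, a transcription factor gene of epithelial progenitors, was the highest of the list, with log2 fold changes of 0.55 and 0.58 (limma adjusted p = 0.253 and 0.25), and Spint1, a gene for an epithelial protease inhibitor, had -0.31 and 0.35 (adjusted p = 0.506 and 0.494).

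The main intermediate filament gene of the tumors was Vim, the mesenchymal vimentin gene, and not a keratin gene. Vim was 4625, 6058 and 5489 FPKM in original/B6129SF1 replicates 1 to 3, 2664, 3350 and 2611 in the adapted/B6129SF1 tumors and 3048, 3704 and 3455 in the adapted/C57BL/6 tumors, below the original tumors in every adapted tumor. Its log2 fold changes were -0.91 (limma adjusted p = 0.02) and -0.66 (adjusted p = 0.0583), of which neither was large enough for a DEG. Without original/B6129SF1 replicate 1 or adapted/B6129SF1 replicate 2 the adapted/B6129SF1 difference was -1.01 or -1.02 (limma adjusted p = 0.037 and 0.0329) and became a DEG. Over all 19 alternative fits it lay between -1.02 and -0.82, with limma adjusted p from 0.0104 to 0.144. The adapted/C57BL/6 difference of Vim lay between -0.77 and -0.57, with limma adjusted p from 0.0335 to 0.291. Krt8 as a share of Vim FPKM was 9.71% ± 3.25 in the original/B6129SF1 group, 7.03% ± 1.32 in the adapted/B6129SF1 group and 6.74% ± 0.698 in the adapted/C57BL/6 group (SD, n = 3 each), with overlapping tumors.

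Of the 12 non-keratin intermediate filament genes 9 passed the filter. The neurofilament genes Nefl and Nefm, and Synm, passed it through the adapted tumors alone, so they are described without a test. Nefl was 0.306, 0.235 and 0.583 FPKM in the original/B6129SF1 tumors, 1.58, 2.98 and 4.83 in the adapted/B6129SF1 tumors and 3.08, 2.95 and 1.60 in the adapted/C57BL/6 tumors. Nefm was 0.126 to 0.669 FPKM in the original/B6129SF1 tumors and 1.24 to 3.07 in the adapted tumors. For Nefl and Nefm, every adapted tumor was above every original tumor. Synm was 0.584 to 0.928 FPKM in the original/B6129SF1 tumors and 0.459 to 17.2 in the adapted tumors, so these overlapped. The other genes that passed, Vim, Des, Nes, Lmna, Lmnb1 and Lmnb2, were not DEGs against original/B6129SF1 by limma. An unadjusted p under 0.05 was reached by 2, Vim and the lamin gene Lmna, in each adapted group, beside 26.5% and 24.4% of all genes. Des and Synm, the genes of the muscle filament proteins desmin and synemin, were highest in adapted/B6129SF1 replicate 3 and adapted/C57BL/6 replicate 1, the tumors richest in muscle transcripts.

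Genes of the gut lining and of bladder umbrella cells were low or absent, at most 3.20 FPKM, although Krt20 itself reached 80.8 FPKM. Merkel cells, also known for Krt20, were not covered by a list here. Of 13 genes for urothelial umbrella cells and gut epithelium 2 passed the filter, Lgals4, which encodes a gut galectin, and Pparg, a nuclear receptor gene. Lgals4 was 1.02 to 2.45 FPKM in the original/B6129SF1 tumors and 1.86 to 3.20 in the adapted tumors and was not a DEG, with log2 fold changes of 0.47 and 0.77 (limma adjusted p = 0.235 and 0.0822). Pparg, which passed through adapted tumors alone and is described without a test, was 0.386 to 0.464 FPKM in the original/B6129SF1 tumors and 0.452 to 2.30 in the adapted tumors. The intestinal regulator genes Cdx1 and Cdx2 and the uroplakin gene Upk3a were listed at 0 in every tumor, Upk2 was 0.0605 FPKM in 1 tumor and 0 in the others, and Vil1, a gene of the gut brush border, was at most 0.229 FPKM.

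The genes whose profile over the 9 tumors lay nearest to that of Krt20, by the root mean square difference of log2(FPKM + 1) after centring each gene on its own mean, were Sox2 (0.63), Ptgfr (0.71), Rgs16 (0.71), Rasgrf1 (0.79) and Slc16a11 (0.82). The median over the other genes tested was 1.59. Krt12 stood at rank 24 by this measure with 0.97, Krt8 would rank 47 and Krt18 125 among 10257 genes. Sox2, a transcription factor gene of progenitor and neuroendocrine cells, was 20.3, 23.6 and 31.5 FPKM in original/B6129SF1 replicates 1 to 3, 5.15, 5.04 and 1.66 in the adapted/B6129SF1 tumors and 7.70, 4.18 and 5.97 in the adapted/C57BL/6 tumors. Like Krt20, it was highest in original/B6129SF1 replicate 3 and, among adapted tumors, highest in adapted/C57BL/6 replicate 1. Ptgfr, the prostaglandin F receptor gene, had means of 14.6 ± 2.3, 2.43 ± 0.901 and 3.06 ± 0.618 FPKM (SD, n = 3 each). Rgs16, a regulator of G protein signalling, had means of 32.1 ± 21.7, 2.83 ± 0.388 and 3.24 ± 0.676 FPKM, and Rasgrf1, an exchange factor for Ras, 8.34 ± 1.2, 1.04 ± 0.321 and 1.24 ± 0.466 FPKM. Slc16a11, a monocarboxylate transporter family gene, had means of 4.69 ± 2.14, 0.486 ± 0.196 and 0.834 ± 0.482 FPKM. These genes were chosen for this likeness, so their levels are a description.

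**Figure D5:**
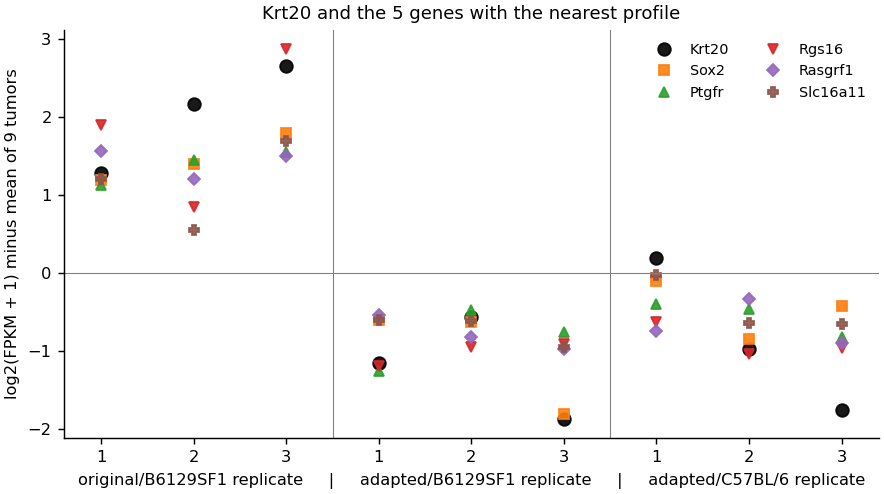
Log2(FPKM + 1) minus the mean over the 9 tumors (vertical axis) for Krt20 and the 5 genes with the nearest profile, by tumor (horizontal axis, 3 replicates in each group). All 6 genes are above their mean in the 3 original/B6129SF1 tumors, and Krt20 is above its mean in adapted/C57BL/6 replicate 1 and below it in the other adapted tumors.

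The labels describe the implanted cells as epithelial cancer cells. Of 10 thyroid follicular genes 3 passed the filter and 0 were DEGs in any comparison by limma. Against original/B6129SF1, 1 of the 3 had an unadjusted p under 0.05 in each adapted group, beside 26.5% and 24.4% of all genes. Nkx2-1, a thyroid transcription factor gene, was 23.5 to 44.5 FPKM in all tumors, with log2 fold changes of 0.04 and 0.09 (limma adjusted p = 0.932 and 0.859). Hhex, another thyroid transcription factor gene, differed by -0.63 and -0.43 (log2, limma adjusted p = 0.054 and 0.163). Pax8 was 0.592 to 1.61 FPKM in the original/B6129SF1 tumors, 0.0174 to 0.136 in the adapted/B6129SF1 tumors and 0.212 to 0.886 in the adapted/C57BL/6 tumors, and did not pass the filter. The thyroglobulin gene Tg was 0.0153, 30.2 and 12.2 FPKM in the original/B6129SF1 tumors, 0.0431, 0.0382 and 1.20 in the adapted/B6129SF1 tumors and 31.0, 11.3 and 0.358 in the adapted/C57BL/6 tumors. Tg thus varied within groups. It was highest in adapted/C57BL/6 replicate 1, the adapted tumor with the most Krt20. It was lowest in original/B6129SF1 replicate 1, where Krt20 was 30.5 FPKM, above every adapted tumor.

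Markers of other cell types were compared beside the keratins. The 10 leukocyte genes in the table summed to 1372 to 1631 FPKM in the original/B6129SF1 group, 1665 to 2669 in the adapted/B6129SF1 group and 1127 to 1989 in the adapted/C57BL/6 group. Cd3e and Cd4 passed the filter through adapted tumors alone and Cd8a nearly so, so they are described without a test. Cd3e was 0.346 to 0.559 FPKM in the original/B6129SF1 tumors and 0.610 to 3.29 in the adapted tumors. Cd4 was 0.351 to 0.951 and 0.764 to 2.57 FPKM, and Cd8a 0.416 to 1.01 and 0.541 to 5.21 FPKM, in the same order. The others that passed were Ptprc, Itgam, Csf1r, Lyz2 and Cd68. They were not DEGs against original/B6129SF1 (limma adjusted p of 0.0959 or more), beside 3.22% and 3.09% of all genes that were. The 8 fibroblast genes summed to 914 to 1201 FPKM in the original/B6129SF1 group, 1007 to 1516 in the adapted/B6129SF1 group and 1047 to 1268 in the adapted/C57BL/6 group. Of these, Fap, a gene of activated fibroblasts, was a DEG in the adapted/B6129SF1 group (log2 fold change 1.21, limma adjusted p = 0.0161), where 2.36% of all genes tested were higher DEGs, a call lost without original/B6129SF1 replicate 3 (adjusted p = 0.0677). The 6 endothelial genes summed to 52.7 to 69.2, 53.7 to 86.0 and 63.7 to 78.9 FPKM in the 3 groups. By limma 0 were DEGs and 0 had an unadjusted p under 0.05 in either adapted group against original/B6129SF1, beside 26.5% and 24.4% of all genes at that p. The part of these cells in the lower Krt8 and Krt20 of the adapted tumors was not tested.

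Among epithelial neighbours, Sprr1a, a gene of the cornified envelope, was the 1 of 3 tested basal and squamous genes that was a DEG. Over all genes tested, 0.857% were lower DEGs for adapted/B6129SF1 and 0.672% for adapted/C57BL/6. Sprr1a was 3.72 to 5.24 FPKM in original/B6129SF1 tumors, 0.483 to 1.59 in adapted/B6129SF1 tumors and 0.499 to 1.95 in adapted/C57BL/6 tumors, and fell by 1.41 and 1.37 (log2, limma adjusted p = 0.0253 and 0.031). The call was lost without any one original/B6129SF1 tumor in both groups, without adapted/B6129SF1 replicate 2 in the adapted/B6129SF1 group (adjusted p between 0.057 and 0.0898 over these fits) and without adapted/C57BL/6 replicate 1 or 3 in the adapted/C57BL/6 group (adjusted p between 0.0621 and 0.104). Msln, which encodes mesothelin, was the 1 mesothelial gene tested. It was 110 to 132 FPKM in the original/B6129SF1 tumors, 43.3 to 51.0 in the adapted/B6129SF1 tumors and 67.6 to 71.8 in the adapted/C57BL/6 tumors. Msln fell by 1.30 (log2, limma adjusted p = 0.00105) in adapted/B6129SF1 tumors, where 0.857% of all genes tested were lower DEGs. Its difference in the adapted/C57BL/6 group, -0.78 (adjusted p = 0.00449), was too small for a DEG, and the other mesothelial markers Wt1, Upk3b, Lrrn4 and Gpm6a did not exceed 0.433 FPKM. Of the 6 airway genes only Tppp3, which is not confined to the airway, passed the filter, with adjusted p of 0.52 and 0.713 from limma, and of the 5 parathyroid and C cell genes 0 passed. Of the muscle genes, 14 passed the filter, Pvalb through adapted tumors alone and Myh2 and Myh4 nearly so, which are described without a test. No other was a DEG in any comparison by limma or had an unadjusted p under 0.05. The muscle list summed to 23.3 to 140 FPKM in the original/B6129SF1 group, 18.6 to 40191 in the adapted/B6129SF1 group and 4.16 to 6394 in the adapted/C57BL/6 group. This spread within groups limits what limma could call.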

How the data were processed

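Per the paper's methods and the labels, the authors sequenced total RNA libraries of 9 tumors as paired-end reads (HiSeq2000), checked them with FastQC 0.11.3, aligned them to mm10 with HISAT2 2.2.1 and normalized them together with Cuffnorm. The deposited values are FPKM. The annotation, the Cuffnorm scaling and the treatment of reads shared by near-identical copies (pseudogenes of Krt8 and Krt18, the paralogs of Krt5, Krt14 and Krt17) are not given in the sources used here. FPKM are not counts, so limma 3.58.1 in R 4.3.3 (lmFit, eBayes with a mean-variance trend) was run on log2(FPKM + 1), with a pseudocount of 1, for 1 model of 3 groups over 10263 of 17369 genes, with Benjamini-Hochberg adjustment over all of them. This stands in for the study's Cuffdiff test and uses its thresholds. Single values used exact permutation tests (scipy 1.17.1). Levels of any 2 tumors were equal in at most 0.0487% of genes tested. Tumors were also simulated with 200 of 10263 genes changed in the adapted/B6129SF1 against original/B6129SF1 comparison, in equal parts by 1.5 and by 3 on the log2 scale. Of those changed by 1.5, 93 were recovered, and of those changed by 3, 99, with 5 false calls. The simulated noise was independent between genes and held no mixed-in muscle tissue, so these figures do not cover such effects.

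The keratins, the 5 partner lists and the 9 marker lists were chosen with earlier results of these data known. Genes named were the members, other keratins that passed the filter, genes of the partner lists, defining markers, and the 5 genes nearest to Krt20. The rule for a partner list, its DEGs and its 4 highest by mean FPKM, was not kept throughout. Dst, Spint2 and Lmnb1, among others, were left out, and Itgb4 and Synm were named outside it. Epcam, Cdh1, Spint1 and Klf5 beside Krt7, Tg beside Krt20, and the airway genes beside the basal keratins were named after their values were seen. So were partner list genes given for their low level. Krt12, Nefl, Nefm, Synm, Pparg, Cd3e, Cd4, Cd8a, Pvalb, Myh2 and Myh4 passed the filter through 1 side of a comparison only, or nearly so. They are described without a test. Replicate numbers come from the labels, and same-numbered tumors are different animals. Alternatives were other pseudocounts, filters and scalings, only the groups compared, a replicate block, no trend, another threshold and each tumor left out. A result of 1 partner list is not reported here. The number of tumors limits the precision. Mouse annotation and sequences were not used here, and genes carry their symbols alone.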

Additional observations from a re-analysis of the deposited data

How the results depend on the processing

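Krt20 was lower in the adapted tumors in all 19 alternatives of each comparison, with log2 differences between -3.61 and -2.55 in the adapted/B6129SF1 group and between -3.40 and -2.31 in the adapted/C57BL/6 group. The count of the other keratins that were DEGs was 1 in each of those groups. In the adapted/B6129SF1 group it was 0 with only the groups compared, 0 with the replicate block and 0 without the 2 muscle-rich tumors, and between 0 and 2 with each tumor left out. In the adapted/C57BL/6 group it was 0 with no filter on low values, 0 with the muscle list removed and FPKM rescaled, 0 with the replicate block and 0 without the 2 muscle-rich tumors, and between 0 and 1 with each tumor left out. The type II sum differed from original/B6129SF1 by -304 FPKM in the adapted/B6129SF1 group and by 0.383 without Krt8, and by -282 and -0.17 in the adapted/C57BL/6 group, since Krt8 is nearly all of that sum.

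Over all genes, 330 DEGs in the adapted/B6129SF1 group became 122 with a pseudocount of 5, 219 with a mean of at least 5 FPKM, 850 with an adjusted p under 0.05 alone and 141 to 358 with each tumor left out. The 317 DEGs of the adapted/C57BL/6 group became 130, 199, 693 and 156 to 347 under the same settings. Between the adapted groups, 3 DEGs became 1 with a pseudocount of 5, 1 with no filter, 0 with a mean of at least 5 FPKM, 0 with only the groups compared and 0 to 6 with each tumor left out. The replicate block gave 242, 245 and 0 DEGs. Tumors with the same number are different animals and share only that number. Their deviations from their group means correlated by -0.10, 0.16 and -0.01 on average in these 3 comparisons. Single pairs ranged from -0.39 to 0.61, and the 3 pairs of adapted/C57BL/6 with original/B6129SF1 tumors were all positive (0.11, 0.30 and 0.07). With the block the adjusted p of Krt8 was 0.0557 and 0.0869 from limma. The causes of these differences were not tested. Depth limits Krt23, Krt5, Krt14 and Krt17, which lay below the filter.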
